A study of Sus scrofa with 6 samples.

Results

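DDC, MAOB and INMT are enzymes that make, oxidise and methylate aromatic amines such as tryptamine, and their messenger RNAs were followed in liver of newborn piglets. The members are the rows of the deposited tables with the identifiers ENSSSCG00000022009 (DDC), ENSSSCG00000023215 (MAOB) and ENSSSCG00000016676 (INMT), 3 of 26733 genes. The rule names identifiers and uses no value, although it was set with earlier results of these data known. All 3 had a value above 0 in all 6 libraries and passed the filter of 1 FPKM or more in at least 3 libraries. FPKM is a level of messenger RNA scaled by transcript length and by the size of the library.

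The piglets were Landrace x Yorkshire crosses whose mothers received tryptophan on different daily schedules. The 2×Trp sows ate 0.26% tryptophan in the morning and again in the afternoon. The High-Low sows ate 0.39% in the morning but 0.13% later in the day. Total RNA from liver gave 3 libraries a group, and liver is a mixture of cell types, in which fewer cells of a type and less RNA per cell cannot be told apart. Whether each library is a separate animal or litter is not stated, and p-values then reflect the spread among these libraries alone, part of which may be technical. The series title places the comparison in a search for liver genes tied to negative effects of dietary tryptophan.

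Most dietary tryptophan that the liver degrades is opened by tryptophan dioxygenase and enters the kynurenine route. A smaller share becomes amines. DDC, aromatic L-amino acid decarboxylase, uses pyridoxal phosphate to remove the carboxyl group, turning 5-hydroxytryptophan into serotonin, DOPA into dopamine and tryptophan into tryptamine. MAOB, monoamine oxidase B, sits in the outer mitochondrial membrane and converts amines to aldehydes with flavin as its cofactor. INMT, indolethylamine N-methyltransferase, moves methyl groups from S-adenosylmethionine onto tryptamine and related amines.

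FPKM totals ran from 956426 in High-Low 3 to 1230288 in High-Low 2, and the read depth behind them is unknown. Mitochondrial genes held 3.48%, 5.20% and 4.16% of the FPKM total in 2×Trp 1, 2 and 3 and 10.0%, 5.83% and 6.79% in High-Low 1, 2 and 3. This share was higher in every High-Low library, by the most in High-Low 1, so it runs along with the diets. Scaled to the nuclear total instead, the log2 fold changes of DDC, MAOB and INMT were 0.64, -0.23 and -0.27, beside 0.58, -0.29 and -0.34 as deposited. Of 11 hepatocyte marker genes in the tables, AHSG was listed at 0 in all 6 libraries, and the 11 summed to 52992 to 69096 FPKM in 2×Trp and 48343 to 74595 in High-Low. Markers of platelets, mast cells and neuroendocrine cells, which store or make amines, were represented by 2 of 7, 3 of 6 and 6 of 8 genes. Their sums were at most 0.535, 1.89 and 1.17 FPKM in any library. The neuroendocrine genes SCG2, DBH and PNMT and the platelet gene GP1BB were listed at 0 throughout.

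INMT was the most abundant of the 3 enzymes and DDC the least, in that order in all 6 libraries. INMT ran from 155.88 to 326.57 FPKM, MAOB from 105.77 to 153.06 and DDC from 26.66 to 67.33. The ranges did not overlap, though the gap between INMT and MAOB was narrow. By mean FPKM over all libraries INMT (241) ranked 473rd, MAOB (132) 748th and DDC (46.3) 1693rd of the 26733 genes. They stood above 95.7%, 93.2% and 84.5% of the 10901 genes tested, whose median was 6.85 FPKM. The tables list a length of 387 for DDC, 1009 for MAOB and 684 for INMT, and whether the values were divided by these lengths is not stated. If they were, the order by mean level times length would be the same, though not in every library. The means of FPKM times length in kilobases are 165 for INMT, 134 for MAOB and 17.9 for DDC.

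DDC, the enzyme that makes the amines, had higher values in High-Low on average, without passing the test. It had 34.2, 50.3 and 26.7 FPKM in 2×Trp 1, 2 and 3, and 60.9, 67.3 and 38.1 in High-Low 1, 2 and 3. The groups overlapped, because High-Low 3 lay under 2×Trp 2, while the highest values were those of High-Low 2 and High-Low 1. Of all genes tested, 3.06% lay wholly higher in High-Low, and DDC was not among them. The means were 37.1 ± 12.1 FPKM in 2×Trp and 55.5 ± 15.4 in High-Low (SD, n = 3 each). On the scale of log2(FPKM + 1) the fold change, High-Low minus 2×Trp, was 0.58 (SE 0.31, 95% interval -0.15 to 1.30), with an adjusted p of 0.998 in limma. It was 0.37 without 2×Trp 3 and 0.82 without High-Low 3, and 0.30 with array quality weights. Those weights are estimated by limma from these same values, and no separate measure of library quality was used. Over all genes tested, 0.00917% were called higher and 0% lower at an adjusted p under 0.05 (1 and 0 genes), against which 0 of the 3 members were called. At an unadjusted p under 0.05 there were 136 higher and 209 lower genes, none of them a member. This depended on the processing. The unadjusted p of DDC, 0.104 here, was 0.0441 scaled to the FPKM total, 0.0488 to that total less its 20 most abundant genes, 0.0325 to the nuclear total, 0.0342 with a replicate block, 0.0380 without 2×Trp 2 and 0.0335 without High-Low 3. The adjusted p of DDC in limma stayed between 0.591 and 1.000 over the 18 alternatives.

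MAOB, the oxidising enzyme, had the smallest spread of the 3 enzymes in 2×Trp. It had 140.55, 142.60 and 153.06 FPKM in 2×Trp 1, 2 and 3, a coefficient of variation of 4.61%. In High-Low 1, 2 and 3 it had 111.57, 140.17 and 105.77 FPKM. The highest High-Low value lay just under the lowest 2×Trp value, so the groups did not overlap, by a margin far smaller than the spread within either group. Among the 10901 genes, 4.12% lay wholly lower in High-Low, and 7.18% lay apart in either direction. Means were 145 ± 6.71 and 119 ± 18.4 FPKM (SD, n = 3 each), and the log2 fold change was -0.29 (SE 0.19, 95% interval -0.73 to 0.14, adjusted p = 0.998 in limma). Within the groups the residual SD of MAOB was 0.16 on the log2 scale, less than the median of 0.32 over genes tested, and 11.5% of genes had a smaller one. DDC and INMT had residual SDs of 0.44 and 0.36.

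INMT, the methylating enzyme, had overlapping values whose means differed by less than the spread within either diet. It had 218, 257 and 327 FPKM in 2×Trp 1, 2 and 3, and 209, 278 and 156 in High-Low 1, 2 and 3. Both extremes came from replicate 3, the highest in 2×Trp and the lowest in High-Low, and High-Low 2 exceeded 2 of the 3 2×Trp libraries. Means were 267 ± 55.0 and 214 ± 61.2 FPKM (SD, n = 3 each), with a log2 fold change of -0.34 (SE 0.27, 95% interval -0.96 to 0.29, adjusted p = 0.998 in limma). Without High-Low 3 the log2 fold change of INMT was -0.13, without 2×Trp 3 it was -0.18, without High-Low 2 it was -0.54, and with quality weights it was -0.73. Those weights gave INMT an unadjusted p of 0.00941 and MAOB, with a log2 fold change of -0.44, one of 0.0121, both with an adjusted p of 0.239 in limma. Without High-Low 2 the unadjusted p of MAOB was 0.030 (log2 fold change -0.42, adjusted p = 0.357 in limma).

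**Figure D1:**
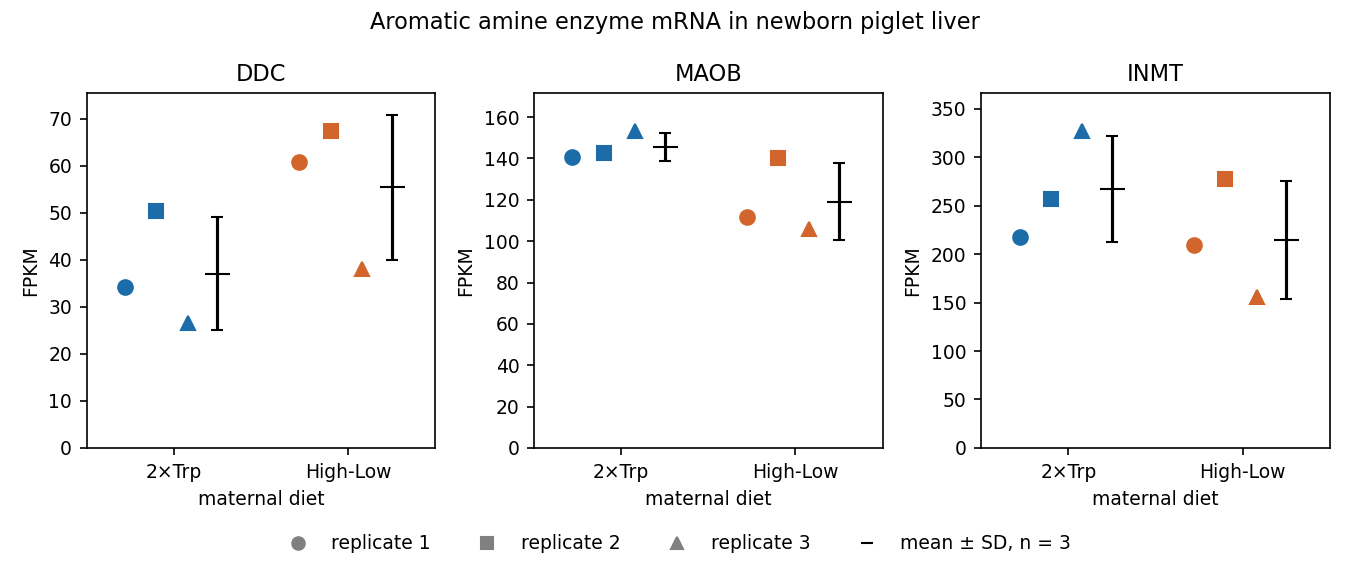
FPKM of DDC, MAOB and INMT (y axes from 0) in the 3 libraries of each maternal diet (x axes), with marker shapes for the replicate number and black bars for the mean ± SD. DDC and INMT overlap between the diets, and the MAOB values of High-Low lie under those of 2×Trp, with High-Low 2 at 140.17 FPKM just below 2×Trp 1 at 140.55.

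High-Low 3 had the lowest level of MAOB and INMT and also the lowest FPKM total, 956426. Scaling each library to the mean total left DDC at 35.2, 46.8 and 27.9 FPKM in 2×Trp and 57.7, 61.8 and 45.0 in High-Low. It put MAOB at 144, 133 and 160 against 106, 129 and 125, and INMT at 224, 238 and 341 against 198, 255 and 184. DDC still overlapped between the diets and MAOB still did not. The scaled log2 fold changes were 0.59, -0.28 and -0.32. The 95% interval of DDC was then 0.02 to 1.16 and no longer included 0 (unadjusted p = 0.0441, adjusted p = 0.999 in limma), while those of MAOB (-0.71 to 0.15) and INMT (-0.85 to 0.21) included it.

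The balance of the enzymes was also compared within each library, where the scale of the library cancels. DDC had its higher mean in High-Low and MAOB and INMT their lower, which was known when the ratios were chosen, so the ratios restate these differences and their p-values are no separate support. There were 0.244, 0.353 and 0.174 FPKM of DDC per FPKM of MAOB in 2×Trp 1, 2 and 3, and 0.546, 0.480 and 0.3602 in High-Low 1, 2 and 3. The groups did not overlap, with High-Low 3 just above 2×Trp 2. The mean log2 ratio was higher by 0.89 in High-Low, a fold of 1.85 (exact permutation p = 0.1, two-sided, the smallest that 3 against 3 allows). Ratios to MAOB lay wholly higher in High-Low for 12.7% of the 10900 other genes tested, so this separation is a common one.

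DDC per INMT gave 0.157, 0.196 and 0.0816 in 2×Trp and 0.291, 0.242 and 0.244 in High-Low. These groups did not overlap either, and the spread was smaller in High-Low. The log2 ratio was higher by 0.93 in High-Low, a fold of 1.90 (exact permutation p = 0.1, two-sided), and 6.3% of genes lay wholly higher in their ratio to INMT. INMT per MAOB was 1.55, 1.80 and 2.13 in 2×Trp against 1.88, 1.98 and 1.47 in High-Low, overlapping, with a log2 difference of -0.04 (exact permutation p = 0.8, two-sided). Its sign turned without 2×Trp 3 (0.08) and without High-Low 3 (0.09). Across the 3 ratios, the p-values could not reach 0.05 in this design, and the ratios share members, so they are not separate lines of evidence.

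**Figure D2:**
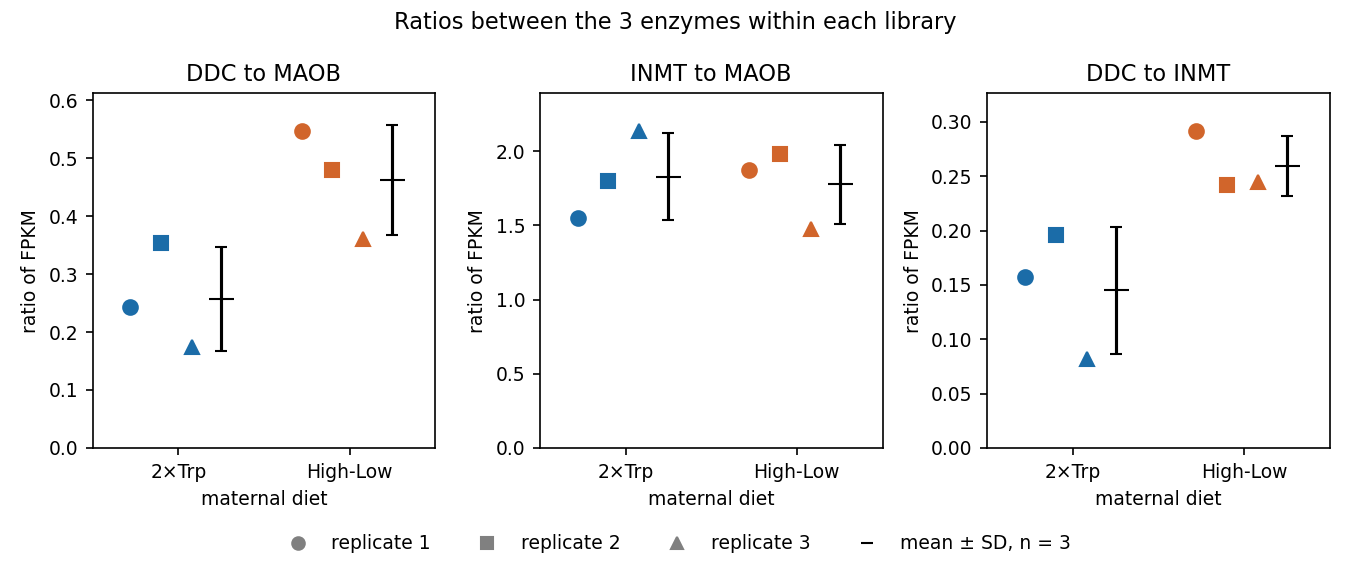
Ratios of FPKM within each library (y axes from 0) for the 3 pairs of enzymes, by maternal diet, with replicate shapes and black bars for the mean ± SD. DDC per MAOB and DDC per INMT lie higher in all 3 High-Low libraries, at 0.3602 or more and 0.242 or more, and INMT per MAOB overlaps.

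MAOB and INMT followed each other from library to library. Over the 6 libraries Pearson's r of log2(FPKM + 1) was 0.89 (exact permutation p = 0.0056, adjusted over the 3 pairs 0.0168) and Spearman's rho 0.83 (exact permutation p = 0.0583, adjusted 0.175). Without 2×Trp 3 and High-Low 3, the libraries farthest from the INMT median, r was 0.66 over 4 libraries, so the relation rests in part on those libraries. Deviations from the mean of each diet gave 0.90, and values scaled to the FPKM total gave 0.77 (exact permutation p = 0.0833). All genes of a library share its scale, and INMT ranked 270 of 10900 genes by likeness to MAOB. DDC had r of -0.29 with MAOB (exact permutation p = 0.515, adjusted 0.773; rho -0.49, exact p = 0.356) and -0.09 with INMT (exact permutation p = 0.878, adjusted 0.878; rho -0.14, exact p = 0.803). Without 2×Trp 3 and High-Low 2, the libraries farthest from the DDC median, these were -0.20 and 0.37. Scaled to the FPKM total, DDC and MAOB had r of -0.84 (exact permutation p = 0.0375), with the sign kept. Deviations from the diet means, which leave out any difference between the diets, gave 0.36.

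Genes whose pattern over the 6 libraries was most like that of each member were taken from those tested with a symbol, as a description only. For DDC these were RAD1 (r = 0.99), a checkpoint clamp subunit that lay near 1 FPKM, ITIH3 (0.99), a plasma protein made in liver, GALNT11 (0.99), a glycosyltransferase, MAGEH1 (0.99) and the mitochondrial pyrophosphatase PPA2 (0.97). ITIH3 had 1018 ± 223 FPKM in 2×Trp and 1411 ± 292 in High-Low (SD, n = 3 each). For MAOB they were the actin regulator CFL1 (0.98), the ubiquitin-activating enzyme UBA1 (0.98), GAMT (0.98), which makes creatine with S-adenosylmethionine, RAB11B (0.98) and SCAND1 (0.98). GAMT had 1004 ± 55.9 FPKM in 2×Trp and 811 ± 223 in High-Low, with High-Low 2 at 1065 beside 723 and 646 in High-Low 1 and 3. High-Low 2 stood above the other High-Low libraries in MAOB as well. For INMT they were biliverdin reductase BLVRB (0.996), the aspartate aminotransferase GOT1 (0.98), AAMP (0.98), TTLL3 (0.97) and ORMDL3 (0.97). BLVRB had 69.1 ± 10.8 and 55.8 ± 13.3 FPKM (SD, n = 3 each). With 6 points, high values of r are common: 73, 196 and 104 of 10900 genes reached 0.9 with DDC, MAOB and INMT.

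The DDC row spans positions 150076905 to 150234100 on the minus strand of chromosome 9 (susScr3 assembly, as deposited), between FIGNL1 and GRB10. Inside that span, from 150112869 to 150137709 on the plus strand, lies ENSSSCG00000015630, a feature without a symbol and with a listed length of 229. It had 11.99, 17.1 and 7.11 FPKM in 2×Trp 1, 2 and 3 and 21.7, 25.0 and 13.6 in High-Low 1, 2 and 3. The libraries stand in the same order as for DDC, and the feature held 26.7% to 37.1% of the DDC value in each. Its r with DDC was 0.99, rank 6 of 10900 genes, and it was singled out after its values were seen. No strand setting is stated for the library or the counting, so reads from the DDC gene and from this feature cannot be told apart, and the DDC level is uncertain to that extent. The sum of both rows had a log2 fold change of 0.62 (SE 0.32, 95% interval -0.13 to 1.38, adjusted p = 0.998 in limma). Of the flanking genes, GRB10, an adaptor of growth factor receptors, had 11.2 ± 1.52 FPKM in 2×Trp and 8.05 ± 2.27 in High-Low, and FIGNL1 was under 1 FPKM in all 6 libraries.

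**Figure D3:**
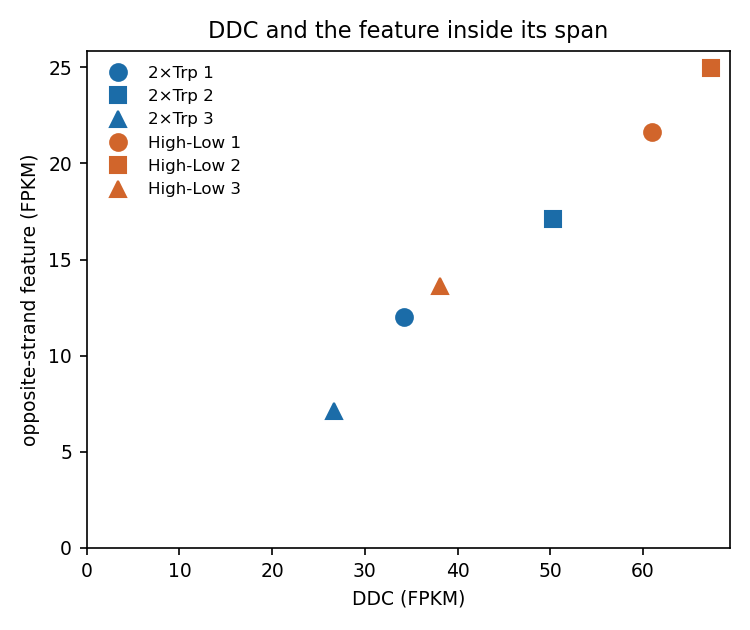
FPKM of DDC (x axis) and of the opposite-strand feature ENSSSCG00000015630 inside its span (y axis), 1 point for each of the 6 libraries, coloured by maternal diet and shaped by replicate number. The points lie along a line from 2×Trp 3 (26.7 and 7.11 FPKM) to High-Low 2 (67.3 and 25.0 FPKM).

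MAOB lies on the minus strand of chromosome X, from 43355507 to 43474320, and no other row overlaps it. The nearest rows are ENSSSCG00000012257, 146456 bases away, at 13.1 ± 3.69 FPKM in 2×Trp and 10.6 ± 2.16 in High-Low, and NDP, 65776 bases away and under 1 FPKM in all 6 libraries. In RefSeq's Sscrofa11.1 annotation MAOB stands between MAOA and a locus without a gene name. MAOA, which oxidises serotonin, was not analysed here. INMT lies on the plus strand of chromosome 18, from 46637157 to 46641921, wholly inside the span of MINDY4, a deubiquitinase gene on the minus strand. MINDY4 was at 1.33 to 2.26 FPKM, at most 0.946% of the INMT value in any library. Of the nearest rows beside INMT, GHRHR is 200335 bases away and was at 0 in all 6 libraries. ENSSSCG00000016675, on the minus strand, is 6762 bases away. It had 15.2 ± 4.37 FPKM in 2×Trp and 9.85 ± 4.27 in High-Low, at most 9.16% of the INMT value in any library.

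The other genes of amine metabolism came from 5 lists of 61 genes, of which 38 had a row and 21 were tested. In limma 0 were called higher and 0 lower, and 9 had a positive and 12 a negative log2 fold change. An unadjusted p under 0.05 was reached by 1 of the 21, beside 136 higher and 209 lower genes of all 10901 tested. Their median was -0.05, beside -0.004 over all genes tested.

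Among genes that supply substrates and cofactors to DDC, 3 of 6 in the tables were tested. PCBD1, which recycles tetrahydrobiopterin, had 605 ± 32.0 against 600 ± 133 FPKM (2×Trp against High-Low, SD, n = 3 each). PTS and SPR, enzymes that synthesise this cofactor, had 31.4 ± 6.43 against 42.7 ± 15.0 and 94.6 ± 14.9 against 91.9 ± 17.0 FPKM. None of the 3 passed the test, and all were at 27.3 FPKM or more in every library. TPH2, which makes the serotonin precursor in neurons, was listed at 0 in all libraries, and TPH1, its counterpart outside the brain, was not analysed here. HDC, the histidine decarboxylase that is a relative of DDC, was at 0.243 FPKM or less.

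Of 10 genes in the tables that work beside and after MAOB, 9 were tested, 5 with positive and 4 with negative log2 fold changes. The aldehyde dehydrogenase ALDH2, which takes up aldehydes left by amine oxidation, had 438 ± 28.2 FPKM in 2×Trp and 410.1 ± 59.3 in High-Low. The aldehyde reductase AKR1A1 had 312 ± 37.9 and 275 ± 67.2, and the aldehyde oxidase AOX1 0.918 ± 0.361 and 1.29 ± 0.853 (SD, n = 3 each). The copper amine oxidase AOC2 had 17.5, 6.88 and 6.73 FPKM in 2×Trp 1, 2 and 3 and 1.52, 5.95 and 8.03 in High-Low 1, 2 and 3. Its extremes were 2×Trp 1 and High-Low 1, and the groups overlapped. Its log2 fold change was -0.95 (95% interval -2.22 to 0.33), with -0.39 when High-Low 1 was left out and -0.53 when 2×Trp 1 was. AOC1, which oxidises histamine, was under 1 FPKM throughout.

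NNMT, a methyltransferase of the same family as INMT that methylates nicotinamide, was the 1 gene of these 21 whose groups did not overlap, beside 7.18% of all genes tested that lay apart in either direction and 4.12% that lay wholly lower, so a count of 1 is near the background. It had 121, 121 and 101 FPKM in 2×Trp 1, 2 and 3, and 80.3, 35.0 and 61.0 in High-Low 1, 2 and 3. Every High-Low library lay under every 2×Trp library, with the lowest value in High-Low 2, the library where INMT was highest for its diet. Means were 114 ± 11.9 and 58.8 ± 22.8 FPKM (SD, n = 3 each). The log2 fold change was -1.02 (SE 0.31, 95% interval -1.74 to -0.30), with an unadjusted p of 0.012 and an adjusted p of 0.998 in limma (0.238 to 1.000 over 17 alternatives), so it did not pass over all genes tested. The third gene of the family, PNMT, which makes adrenaline, was listed at 0 in all libraries. Genes of the methyl donor cycle had 297 ± 101 against 258 ± 83.2 FPKM (MAT1A, which makes S-adenosylmethionine in liver) and 164 ± 35.0 against 201 ± 51.6 (AHCY, which clears its product). TPMT, a methyltransferase of thiopurine drugs, had 1.33 ± 1.07 and 1.62 ± 0.580 FPKM. AANAT, of melatonin synthesis, was listed at 0.

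Transporters and receptors of amines had low values. All 10 of those listed that had a row were under 1 FPKM in every library, so none was tested. They include the serotonin transporter SLC6A4, the vesicular transporters SLC18A1 and SLC18A2 and the serotonin receptors HTR2B, HTR4 and HTR7.

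TDO2, which opens the kynurenine route, had 33.2, 88.4 and 152 FPKM in 2×Trp 1, 2 and 3 and 124, 31.4 and 73.4 in High-Low 1, 2 and 3. Its highest value was 4.85 times its lowest, beside 2.53 times for DDC, 2.10 for INMT and 1.45 for MAOB. In 2×Trp 1 and High-Low 2 the level of DDC exceeded that of TDO2, and in the other 4 libraries it lay below. IDO2 had 18.0 ± 3.19 and 20.3 ± 7.50 FPKM, and WARS1, which charges tryptophan onto its transfer RNA, 23.2 ± 3.62 and 18.8 ± 2.24 (SD, n = 3 each).

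**Figure D4:**
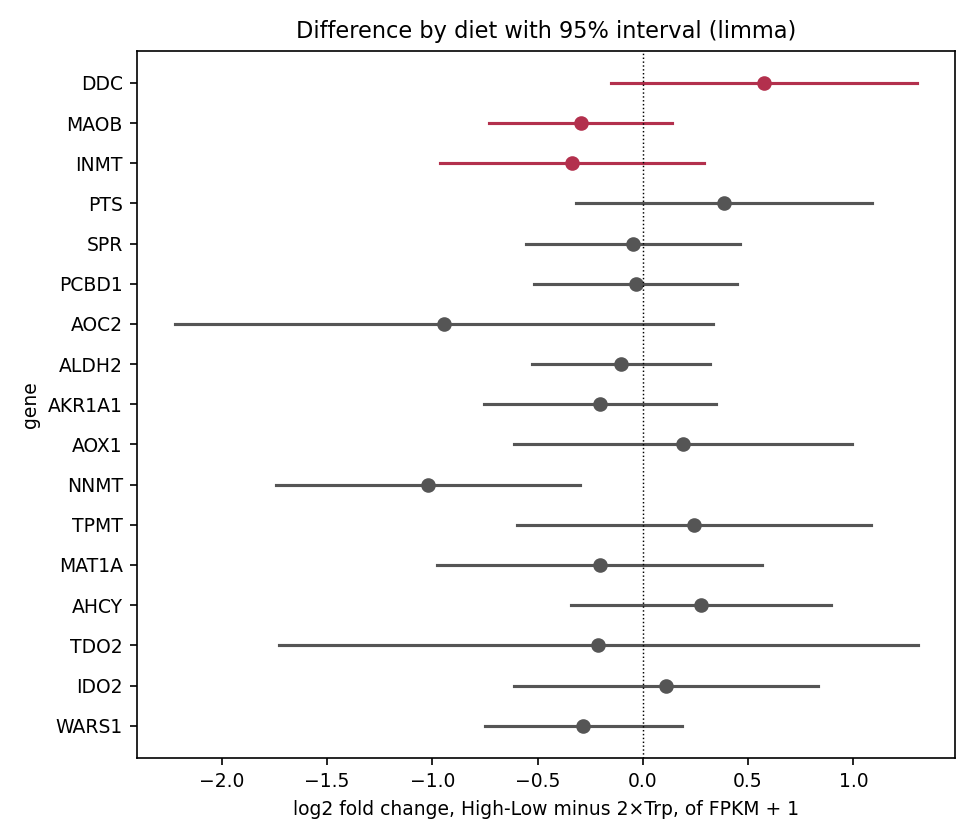
Log2 fold changes of FPKM + 1, High-Low minus 2×Trp (x axis), with 95% intervals from limma, for DDC, MAOB and INMT (red) and the named genes of amine metabolism (grey). The intervals of the 3 enzymes include 0, and NNMT at -1.02 is the gene shown whose interval does not.

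Markers of other cell types also differed between the libraries, and their part in the values of the 3 enzymes was not tested. Of 12 endothelial markers 10 had a row, all tested and with negative log2 fold changes (median -0.43, 1 at an unadjusted p under 0.05), and with sums of 178 to 219 FPKM in 2×Trp and 110 to 202 in High-Low. Of 9 macrophage markers 5 had a row and were tested, with sums of 413 to 572 and 246 to 444 FPKM, of which C1QA gave the most. Their log2 fold changes were negative in 4 of 5 (median -0.68), and 4 had an unadjusted p under 0.05. Of 8 erythroid markers 6 had a row, with sums of 6170 to 15893 and 1817 to 7199 FPKM, nearly all from HBB, and all 5 tested were negative (median -1.01, 2 at an unadjusted p under 0.05). For neutrophils 6 of 8 had a row, with 24.7 to 35.2 and 30.4 to 98.5 FPKM, and all 5 tested were positive (median 0.62, 0 at an unadjusted p under 0.05). No gene of these 4 lists passed at an adjusted p under 0.05 in limma. Of all 10901 genes tested, 136 higher and 209 lower genes had an unadjusted p under 0.05 in limma. Bile duct markers (5 of 7 with a row) summed to 25.9 to 35.1 and 23.1 to 30.3 FPKM, and stellate cell and fibroblast markers (8 of 10) to 103 to 163 and 104 to 148. None of these 6 lists had a gene at 0 in all libraries, and the sums overlapped between the diets for each. Central-vein markers of the liver lobule (7 of 9 with a row) summed to 320 to 962 and 597 to 952 FPKM, and portal markers (5 of 7) to 2521 to 2949 and 2178 to 2751. Positive and negative log2 fold changes numbered 4 and 1 for central-vein and 2 and 3 for portal markers. They numbered 6 and 4 for hepatocyte, 2 and 2 for bile duct and 3 and 4 for stellate cell and fibroblast markers. None of these genes had an unadjusted p under 0.05 in limma. Hepatocyte sums were highest in High-Low 2 (74595 FPKM), where DDC was highest too, and lowest in High-Low 3 (48343), where MAOB and INMT were lowest. These sums were not scaled and put the 6 libraries in the same order as the FPKM totals do, so they follow the scale of the library. Their largest rows, APOA1 and ALB, had log2 fold changes of opposite sign (-0.46 and 0.56). The next lowest hepatocyte sum, 52992 FPKM, was that of 2×Trp 3, the library with the highest MAOB and INMT and the lowest DDC. Whether the members follow hepatocyte content was not tested.

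**Figure D5:**
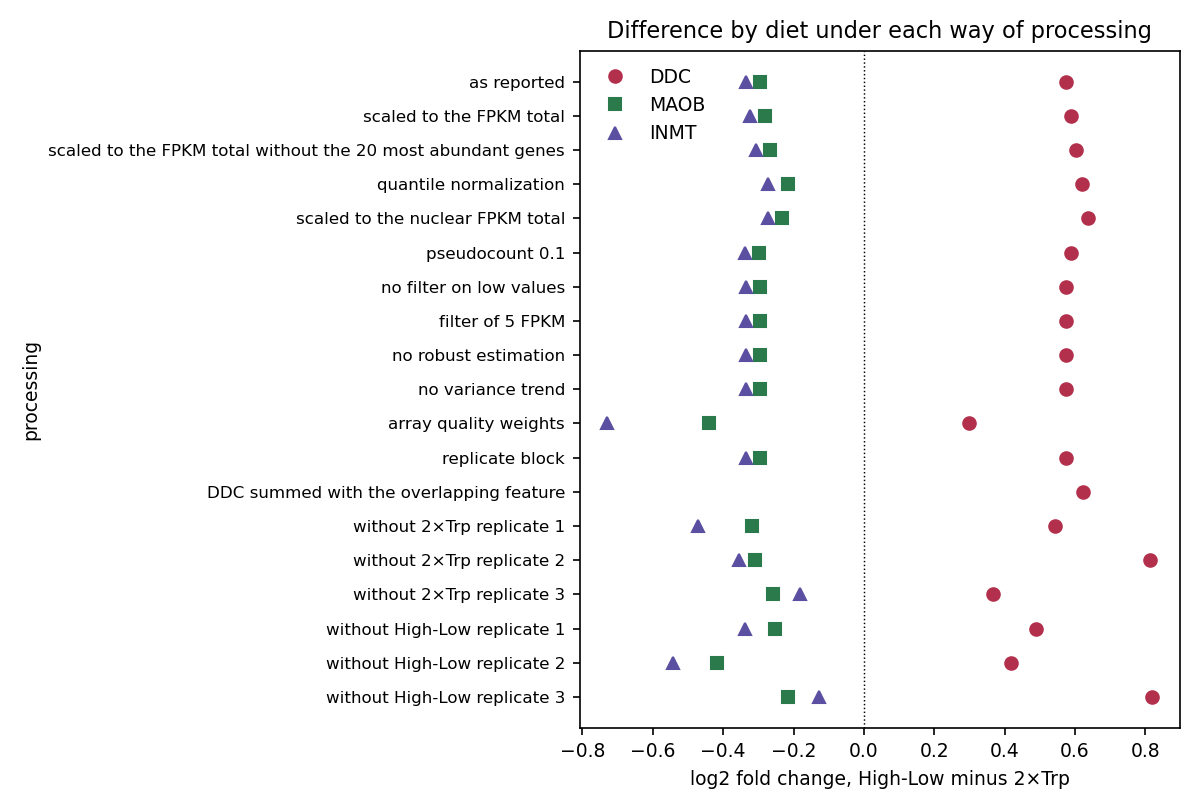
Log2 fold change, High-Low minus 2×Trp (x axis), of DDC, MAOB and INMT as reported and under each other way of processing (y axis). DDC stays positive (0.30 to 0.82) and MAOB and INMT negative (-0.44 to -0.21 and -0.73 to -0.13) in all of those run, and array quality weights and the left-out libraries move them most.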

How the data were processed

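Per the labels' protocols, Trizol was used to extract liver RNA and an Illumina TruSeq kit to make the libraries. The computation of the values, their annotation and strand setting were not given in the sources used here. Sample titles gave the groups and replicate numbers. Tools named in the submitters' processing notes are HTSeq 0.6.1, TopHat2 2.0.12 and Bowtie2 2.2.3, with the susScr3 assembly. 

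The deposited tables give 1 value per gene, read as FPKM because the values are not whole numbers and their totals differ; no read counts can be recovered from them. Of the Ensembl identifiers, a reference table named 11804 of 25322. Genes reaching 1 FPKM in 3 libraries or more were compared on log2(FPKM + 1), without further scaling, by limma 3.58.1 in R 4.3.3 (trended, robust variance; Benjamini-Hochberg over 10901 genes; threshold 0.05). This scale understates changes of low genes. Ratios and correlations used exact permutation (scipy 1.17.1), and figures matplotlib 3.10.9. The fit was tested on simulated data.

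Members, lists and rules were chosen with earlier results of these data known. Named genes are, of each list, the 3 tested genes of smallest p and a fixed set, the 5 genes most alike to each member, and flanking genes. HDC and PNMT were named with the rules, as relatives of DDC and INMT. TPH2, AOC1 and the transporters and receptors under 1 FPKM were named after their values were seen. Alternatives were other scalings, filters, pseudocount, variance settings, library weights, a replicate block and leaving out each library. Some genes of the lists are not reported here and are left out of the list counts. Protein and promoter sequences were not used here.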

Additional observations from a re-analysis of the deposited data

How the results depend on the processing

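DDC, MAOB and INMT kept their direction and stayed short of the threshold on the adjusted p in 18, 17 and 17 alternatives. Adjusted p ranged from 0.591 to 1.000 for DDC and from 0.239 to 1.000 for MAOB and INMT in limma. Summing DDC with the overlapping feature was chosen after seeing the data. The log2 fold changes without single libraries ran from 0.37 to 0.82, from -0.42 to -0.21 and from -0.54 to -0.13. Array quality weights gave 0.30, -0.44 and -0.73. A sum of rows or a scaling cannot recover the read depth, which limits what can be said of low genes. Same-numbered libraries did not deviate together (r of deviations -0.22, -0.01 and 0.03), so the numbers were not taken as pairs. With a replicate block the log2 fold changes were 0.58, -0.29 and -0.34 with adjusted p of 1.000, 1 gene was higher and 0 lower, and the mean log2 differences of the DDC to MAOB, INMT to MAOB and DDC to INMT ratios were 0.89, -0.04 and 0.93. Without single libraries the ratios ran from 0.64 to 1.14, from -0.15 to 0.0895 and from 0.56 to 1.19.

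Array quality weights, quantile normalization and each of the 3 scalings (FPKM total, that total less the top 20 genes, nuclear total) gave 1 lower gene in place of 0. Without single libraries 1 to 2 genes were higher, 2 of them without 2×Trp 3. Between members, r turned from -0.29 to 0.36 (DDC and MAOB) and from -0.09 to 0.33 (DDC and INMT) for deviations from the diet means. Scaled to the FPKM total it was -0.84 for DDC and MAOB (exact permutation p = 0.0375) and 0.77 for INMT and MAOB (0.0833). Deviations from the diet means leave out any difference between the diets, and the cause of these shifts was not otherwise tested. Of the genes near 0, PCBD1 turned to 0.043 and 0.029 and SPR to 0.024 and 0.015 with quantile normalization and nuclear scaling. With array quality weights AHCY turned to -0.0034 and IDO2 to -0.28. Without single libraries the log2 fold changes ran from -0.41 to 0.076 (MAT1A), -0.80 to 0.31 (TDO2), -0.20 to 0.107 (PCBD1), -0.17 to 0.10 (SPR), -0.36 to 0.0016 (AKR1A1), -0.051 to 0.59 (TPMT) and -0.12 to 0.42 (IDO2).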
